A study of Homo sapiens with 10 samples.

Results

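The genes described are 10 heat shock proteins of the cytosol and of mitochondria, chosen by symbol among the 32738 genes of the deposited count table. They are the HSP70 genes HSPA1A, HSPA1B and HSPA8, the HSP110 gene HSPH1, the J-domain gene DNAJB1, the HSP90 genes HSP90AA1 and HSP90AB1, the small heat shock protein gene HSPB1, and the mitochondrial chaperonin genes HSPD1 and HSPE1. All 10 were found, each in 1 row, and all 10 passed the filter on low counts, as did 12733 genes in all. The cells were HepG2, an established human hepatoma line. They were kept for 17 h in regular growth medium (control, 5 libraries) or in growth medium with 2 µg/ml tunicamycin (5 libraries), which blocks N-linked glycosylation in the endoplasmic reticulum (ER). Both groups were the same line with no genetic change named in the labels, and a control and a tunicamycin library with the same replicate number came from the same experimental day.

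Heat shock proteins are molecular chaperones that bind unfolded or partly folded proteins and help them to fold, to stay soluble or to be degraded. HSP70 proteins work with J-domain partners that deliver clients and with HSP110 proteins that exchange nucleotide, HSP90 acts later on signalling proteins and other clients, and HSP60 with its HSP10 lid folds proteins inside mitochondria. In the cytosol many of these genes are switched on by heat shock factor 1 through heat shock elements, whereas the ER has its own set of chaperones, induced by the unfolded protein response, of which the HSP70 protein BiP (HSPA5) is the best known. The comparison of tunicamycin with control therefore asks how the cytosolic and mitochondrial chaperone genes stood when protein folding was disturbed in the ER.

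The libraries were made from mRNA 3′ ends with the QuantSeq method, in which a transcript gives about 1 fragment whatever its length. Total counts were between 4242538 and 4888292 in control libraries and between 2234682 and 5029864 in tunicamycin libraries, where replicate 5 was the lowest. Mitochondrially encoded transcripts took 22.7% to 25.2% of control counts and 18.3% to 28.8% of tunicamycin counts. The hepatocyte genes ALB, APOA1, APOB, AFP, TTR, FGB, SERPINA1 and HNF4A were counted in the libraries, as the cell line's label requires. The leukocyte gene PTPRC had 0 counts in all 10 libraries, and the fibroblast gene COL1A1 had 5 counts in 1 library. For a single library taken alone, 0 counts leave an upper 95% limit of about 3 on the expected count. A count is relative to its library, so that fewer cells and less RNA per cell cannot be told apart. Normalized counts were obtained by dividing each count by its library's effective size (TMM, trimmed mean of M values) and multiplying by the mean effective size.

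The sequence before annotated starts of the genes is shown first because the best known regulator of this family reads a short motif in such sequence. The heat shock element was searched on both strands, as 3 alternating GAA and TTC units with any 2 bases between neighbours, in the 250 bases before each annotated start in RefSeq (GRCh38.p14). The 10 genes have 16 such windows, and 4 of the 16 held this 3-unit element, against 0.441% of all 35116 windows. The shorter form of 2 units, GAANNTTC or TTCNNGAA, which is part of the longer element, was in 8 of the 16 windows and in 11.6% of all windows. Stretches of 30 bases around the matches are printed 5′ to 3′ on the gene's strand, with the matched motif in capitals, for HSPA8 (chr11:123062346-123062375 and chr11:123062171-123062200, minus strand), HSP90AB1 (chr6:44247769-44247798 and chr6:44247822-44247851, plus strand), HSPD1 (chr2:197500061-197500090, minus strand), HSP90AA1 (chr14:102087112-102087141, minus strand), HSPA1A (chr6:31815426-31815455, plus strand), HSPA1B (chr6:31827622-31827651, plus strand), DNAJB1 (chr19:14518456-14518485 and chr19:14518426-14518455, minus strand) and HSPB1 (chr7:76302480-76302509, plus strand).
HSPA8, far: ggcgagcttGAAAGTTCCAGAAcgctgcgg
HSPA8, near: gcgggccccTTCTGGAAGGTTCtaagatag
HSP90AB1, far: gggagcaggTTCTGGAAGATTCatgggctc
HSP90AB1, near: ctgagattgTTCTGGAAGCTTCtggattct
HSPD1: gcattTTCTGGAAAGTTCTGGAAccgagcg
HSP90AA1: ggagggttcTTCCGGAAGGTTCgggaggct
HSPA1A: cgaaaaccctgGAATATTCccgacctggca
HSPA1B: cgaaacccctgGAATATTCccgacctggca
DNAJB1, far: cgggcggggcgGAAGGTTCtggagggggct
DNAJB1, near: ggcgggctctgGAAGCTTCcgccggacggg
HSPB1: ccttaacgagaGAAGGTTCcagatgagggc

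The 3-unit element was thus present in windows of HSPA8, HSP90AA1, HSP90AB1 and HSPD1, and HSPA1A, HSPA1B, DNAJB1 and HSPB1 held only the shorter form. HSP90AA1, HSP90AB1, HSPD1 and DNAJB1 have more than a single window. For each of them only the window with the printed matches held either form. HSP90AA1 also held a separate match to the shorter form, at -68 to -61 from the same annotated start, which is not printed. The stretches printed for HSPA8, HSP90AA1, HSP90AB1, HSPD1 and DNAJB1 lie inside the span of their own gene in the GENCODE annotation. The starts that follow these windows are therefore internal to that span. HSPH1 and HSPE1 held neither in their windows. The HSPE1 window, chr2:197500129-197500378, did not reach the stretch printed for HSPD1, chr2:197500061-197500090. That stretch lies upstream of the HSPE1 gene start in the GENCODE annotation, chr2:197500140 on the plus strand. The ER stress element, CCAAT and CCACG with any 9 bases between them on either strand, was in 0 of the 16 windows and in 0.074% of all windows. In the windows of 9 ER chaperone genes, the 3-unit heat shock element was in 0 of 9 and the ER stress element in 2 of 9. The CCAAT box (CCAAT or ATTGG), whose letters open the ER stress element, was in 7 of the 16 windows of the heat shock protein genes, in 9 of the 9 ER windows and in 32.0% of all windows. A match is a description of the letters, and the data hold no measure of factor binding.

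Tunicamycin split the family. HSPA8 and HSPA1B rose, HSPB1, HSP90AA1, DNAJB1 and HSPH1 fell, and HSPA1A, HSP90AB1, HSPD1 and HSPE1 did not pass the threshold, set at 0.05 for the Benjamini-Hochberg adjusted p of edgeR's quasi-likelihood test across the 12733 genes. The share of genes called was 34.2% over all genes, 17.6% higher and 16.6% lower, beside 6 of the 10 members. Of all calls 51.4% were higher, and 40.8% when libraries were scaled by their totals alone, a scaling under which the members' calls were again 2 higher and 4 lower. The median log2 fold change of the 10 genes was -0.07, and that of all genes tested was -0.003. The 10 genes together took 0.772% to 0.923% of the counts in control libraries and 0.549% to 0.848% in tunicamycin libraries. The ranges overlap, and the share was lower with tunicamycin in each of the 5 day-matched pairs. This share is weighted by counts, and HSP90AA1, the highest of the 10 genes in control, went from a mean of 15179 to 9167 normalized counts. The next highest, HSP90AB1 and HSPD1, were at 10812 and 6449 in control and at 11344 and 6342 in tunicamycin libraries. The share without HSP90AA1 was not computed.

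**Figure D1:**
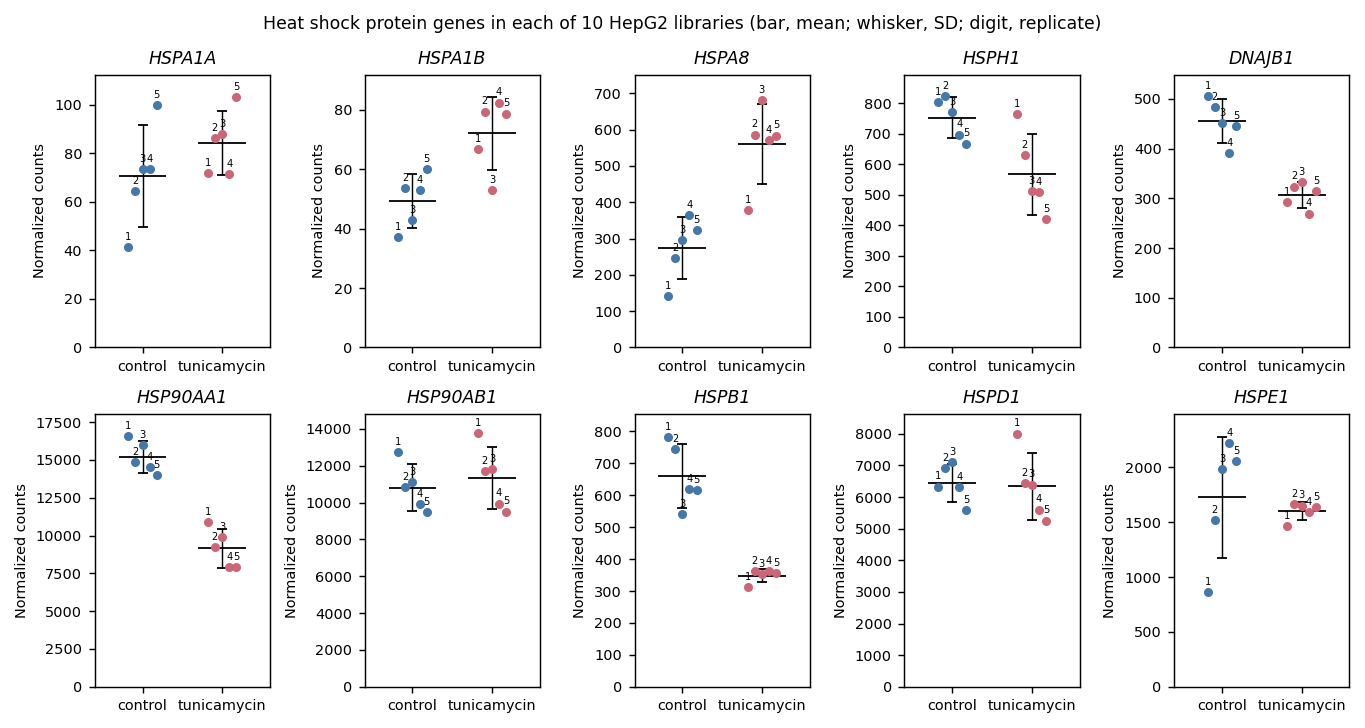
Normalized counts (vertical axis, linear from 0) of the 10 genes in control and tunicamycin libraries, 1 point per library with its replicate number, the mean as a bar and the SD as a whisker (n = 5). HSPA8 is higher in every tunicamycin library than in any control, HSP90AA1, DNAJB1 and HSPB1 are lower in every one, and the other genes overlap.

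HSPA8 encodes the constitutive cytosolic HSP70, HSC70, which folds new chains, uncoats clathrin vesicles and delivers clients to lysosomes (GRCh38 chr11:123057489-123063230, minus strand). Its normalized counts, here and for every gene listed in the order of replicates 1 to 5, were 141, 246, 295, 365 and 323 in the controls and 378, 586, 682, 571 and 583 in the tunicamycin libraries. The groups did not overlap, and replicate 1 was the lowest library of both groups. The mean went from 274 ± 85.9 to 560.3 ± 111 (SD, n = 5), a log2 fold change of 1.03 (SE 0.19, adjusted p = 0.00030 in edgeR's quasi-likelihood test). The rise was seen in 5 of 5 day-matched pairs, with log2 ratios of 0.65 to 1.42. Among the members it was the only one higher without overlap, a state that held for 11.7% of all genes tested.

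HSPA1A and HSPA1B encode the classical heat-inducible HSP70 and lie near each other on chromosome 6 as single-exon genes (GRCh38 chr6:31815543-31817946 and chr6:31827738-31830254, plus strand). HSPA1B was at 37.0, 53.5, 42.9, 52.9 and 60.0 normalized counts in the controls and at 66.7, 79.4, 52.9, 82.4 and 78.7 in the tunicamycin libraries. Only tunicamycin replicate 3 lay within the control range. HSPA1B rose from 49.2 ± 9.17 to 72.0 ± 12.3 (SD, n = 5), a log2 fold change of 0.54 (SE 0.17, adjusted p = 0.0214 in edgeR's quasi-likelihood test), and was higher in 5 of 5 pairs. The call was lost when control replicate 1 (adjusted p = 0.0518 in edgeR's test), control replicate 3 (0.0524), tunicamycin replicate 2 (0.0550) or tunicamycin replicate 4 (0.05005) was left out, with log2 fold changes of 0.45 to 0.50.

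HSPA1A had normalized counts of 41.3, 64.2, 73.5, 73.5 and 99.6 in the controls and of 71.8, 86.3, 87.9, 71.4 and 103 in the tunicamycin libraries. The groups overlapped broadly, and control replicate 1 was the lowest library. The log2 fold change was 0.25, with a 95% interval of -0.15 to 0.64 (adjusted p = 0.334 in edgeR's test), and 4 of 5 pairs were higher with tunicamycin. That interval contains the estimate for HSPA1B, and the ratio of HSPA1A to HSPA1B counts within a library did not differ detectably between the groups (log2 difference -0.25, exact permutation test, two-sided, p = 0.238, 0.26 adjusted over 12 ratios), although it was lower with tunicamycin in 5 of 5 pairs. The pair's coding sequences share 1919 of 1923 bases (99.8%), so that reads from them are hard to assign, and the last 500 bases of their transcripts, where QuantSeq reads fall, were 82.7% identical over the 358 bases that aligned. Of the 451 stretches of 50 bases in those ends, 22.2% for HSPA1A and 1.33% for HSPA1B occur more than once in the genome. How the counting treated such reads is not given in the sources used here, so the split between both genes is uncertain.

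HSPH1 encodes HSP105, an HSP110 protein that exchanges nucleotide on HSP70 (GRCh38 chr13:31134973-31162388, minus strand). It had 804, 823, 772, 697 and 668 normalized counts in the controls and 764, 631, 511, 509.7 and 419.7 in the tunicamycin libraries. Tunicamycin replicate 1 lay inside the control range and the other tunicamycin libraries lay below it. The mean was 753 ± 67.5 in control and 567 ± 133 in tunicamycin cells (SD, n = 5), a log2 fold change of -0.40 (SE 0.13, adjusted p = 0.0188 in edgeR's quasi-likelihood test), and 0 of 5 pairs were higher. Without control replicate 2, tunicamycin replicate 3 or tunicamycin replicate 5 the adjusted p in edgeR's test was 0.0535, 0.0565 and 0.0533, no longer under the threshold.

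DNAJB1 encodes HSP40, the J-domain protein that hands clients to the inducible HSP70 (GRCh38 chr19:14514769-14560391, minus strand). Its normalized counts were 506, 484, 451, 392 and 445 in the controls and 292, 323, 333, 269 and 315 in the tunicamycin libraries. Every tunicamycin library lay below every control library, which held for 11.9% of all genes tested. DNAJB1 fell from 456 ± 43.6 to 306 ± 25.6 (SD, n = 5), a log2 fold change of -0.57 (SE 0.09, adjusted p = 0.000119 in edgeR's quasi-likelihood test).

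The HSP70 machine thus did not move as a unit. Relative to HSPA8 in the same library, DNAJB1 counts fell by 1.65 on the log2 scale, from ratios of 1.07 to 3.58 in control to 0.472 to 0.773 in tunicamycin libraries (two-sided exact permutation p = 0.00794, which is as low as 5 against 5 libraries can go, 0.0119 adjusted over 12 ratios). HSPH1 relative to HSPA8 fell by 1.51 on the log2 scale (exact permutation test, p = 0.0159, adjusted 0.0212), with tunicamycin replicate 1 overlapping the controls. HSPA1A relative to HSPA8 fell by 0.78 (exact permutation test, p = 0.00794, adjusted 0.0119), and HSPA1B relative to HSPA8, at -0.53, had an exact permutation p of 0.0476 that became 0.0571 on adjustment. A ratio of this kind does not depend on how libraries are scaled, but several of them share HSPA8. Of the end stretches of HSPA8 35.5% occur more than once in the genome. The part of such reads in the rise of HSPA8 and in these ratios was not tested.

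HSP90AA1 encodes the stress-inducible and HSP90AB1 the constitutive cytosolic HSP90, which mature kinases, steroid receptors and other clients. HSP90AA1 (GRCh38 chr14:102080742-102139699, minus strand) had 16589, 14841, 15978, 14515 and 13973 normalized counts in the controls and 10893, 9227, 9903, 7908 and 7904 in the tunicamycin libraries. The groups did not overlap. The gene fell from 15179 ± 1077 to 9167 ± 1295 (SD, n = 5), a log2 fold change of -0.73 (SE 0.10, adjusted p = 1.07e-05 in edgeR's quasi-likelihood test), or to 60.4% of control.

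HSP90AB1 (GRCh38 chr6:44246166-44253888, plus strand) had 12731, 10847, 11092, 9913 and 9477 normalized counts in the controls and 13765, 11690.4, 11803, 9943 and 9516 in the tunicamycin libraries. The groups overlapped almost wholly, while libraries of the same day lay close together. The log2 fold change was 0.07 with a 95% interval of -0.15 to 0.29 (adjusted p = 0.65 in edgeR's test), so that a change of the size seen for HSP90AA1 lay outside the interval. All of the 5 pairs were higher with tunicamycin, by 0.004 to 0.11 on the log2 scale. The sign of the estimate was not stable, reaching -0.01 under alternatives.

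Within a library, HSP90AA1 counts were 1.30, 1.37, 1.44, 1.46 and 1.47 times those of HSP90AB1 in the controls and 0.791, 0.789, 0.839, 0.795 and 0.831 times in the tunicamycin libraries. The ratio was narrow within each group and the groups were far apart. The log2 difference was -0.80 (exact permutation test, two-sided, p = 0.00794, adjusted 0.0119 over 12 ratios). The coding sequences of both genes are 77.9% identical, and 9.76% of the end stretches of HSP90AA1 and 12.0% of those of HSP90AB1 occur more than once in the genome.

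**Figure D2:**
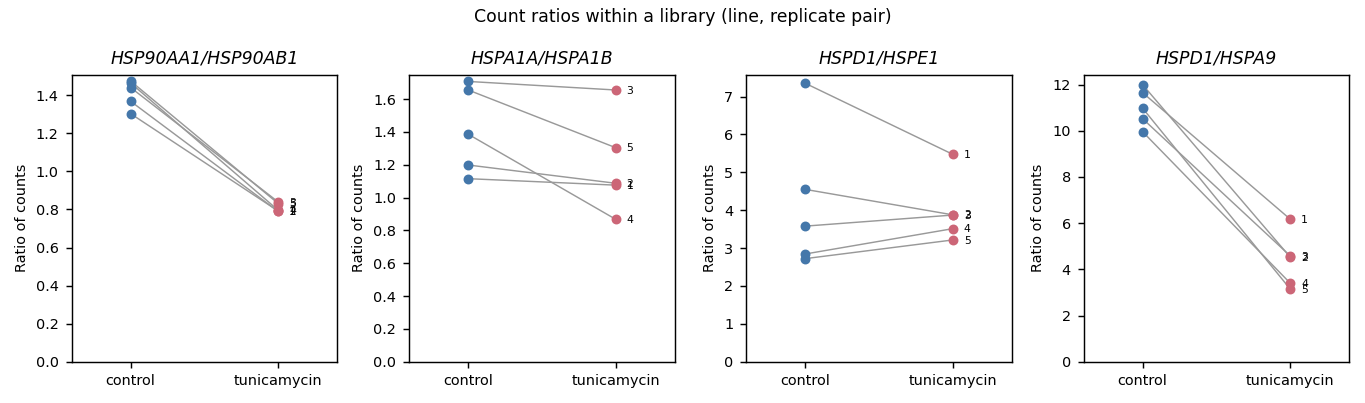
Ratio of counts of 2 genes in the same library (vertical axes, linear from 0) in control and tunicamycin cells, with lines joining libraries of the same day and replicate numbers at the right. HSP90AA1/HSP90AB1 goes from between 1.30 and 1.47 to between 0.789 and 0.839 in every pair, HSPD1/HSPA9 also falls in every pair, and HSPD1/HSPE1 does not separate the groups.

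HSPB1 encodes HSP27, a small heat shock protein that holds unfolded proteins without using ATP and acts on actin filaments (GRCh38 chr7:76302673-76304295, plus strand). It had 783, 745, 539.8, 619 and 617 normalized counts in the controls and 312, 361, 353, 361 and 355 in the tunicamycin libraries. The tunicamycin libraries lay in a narrow band below every control library. The fall, from 661 ± 101 to 349 ± 20.9 (SD, n = 5), was the largest among the 10 genes, with a log2 fold change of -0.93 (SE 0.10, adjusted p = 1.40e-06 in edgeR's quasi-likelihood test) and pair values of -1.33 to -0.61. Relative to HSPA8, HSPB1 fell by 1.99 on the log2 scale (exact permutation test, p = 0.00794, adjusted 0.0119). Of the end stretches of HSPB1 25.3% occur more than once in the genome, as do 35.5% of those of HSPA8, and the part of such reads in either result was not tested.

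HSPD1 encodes HSP60 and HSPE1 encodes HSP10, the barrel and lid of the mitochondrial chaperonin. The genes lie on opposite strands of chromosome 2 (GRCh38 chr2:197486584-197516737, minus strand, and chr2:197500140-197503449, plus strand). In these coordinates the span of HSPE1 lies inside that of HSPD1. HSPD1 had 6329.9, 6912, 7099.9, 6310.2 and 5592 normalized counts in the controls and 8008, 6450.04, 6393, 5602 and 5258 in the tunicamycin libraries. The ranges overlapped, and tunicamycin replicate 1 was the highest library. The log2 fold change was -0.02, with a 95% interval of -0.25 to 0.20 (adjusted p = 0.886 in edgeR's test).

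HSPE1 had 861, 1519, 1983, 2217 and 2053 normalized counts in the controls and 1463, 1663, 1650.3, 1594 and 1634 in the tunicamycin libraries. Control libraries spread much more widely than tunicamycin libraries, with control replicate 1 far below the rest. The log2 fold change was -0.11 with a 95% interval of -0.47 to 0.25 (adjusted p = 0.661 in edgeR's test). Without control replicate 1 it was -0.28 and passed the threshold (adjusted p = 0.0335 in edgeR's test). The same library was the lowest control for HSPA8, HSPA1A and HSPA1B, and the highest for HSP90AA1, HSP90AB1, DNAJB1 and HSPB1. It was also the lowest control for AFP, the fetal liver protein, at 4138 normalized counts against 8296 to 16911 in the other controls. The part of this library in the HSPE1 result was not tested further.

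The ratio of HSPD1 to HSPE1 counts ranged from 2.72 to 7.35 in control and from 3.22 to 5.47 in tunicamycin libraries, and the highest value of each group was in replicate 1. Its log2 difference was 0.00 (exact permutation test, two-sided, p = 1). For HSPD1 64.7% and for HSPE1 36.8% of the end stretches occur more than once in the genome. The end of HSPE1 also overlaps the read-through gene HSPE1-MOB4 over 33.8% of its length, a row that had 0 counts in all 10 libraries.

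**Figure D3:**
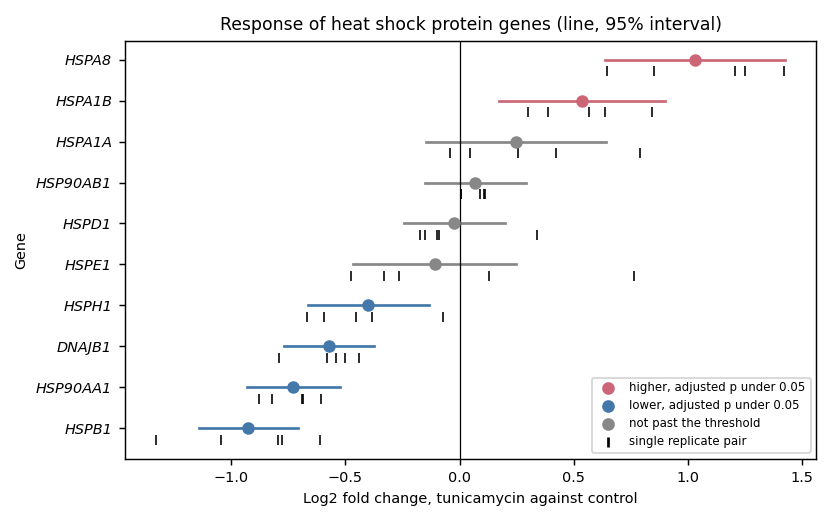
Log2 fold change of tunicamycin against control for each gene (horizontal axis), with its 95% interval as a line and the 5 day-matched pairs as ticks below it. Colours mark genes higher or lower with an adjusted p under 0.05, and the range runs from -0.93 for HSPB1 to 1.03 for HSPA8.

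Of 24 co-chaperones of HSP70 and HSP90, 5 rose and 2 fell, beside 17.6% and 16.6% of all genes tested, with a median log2 fold change of 0.07. The number that rose was 2 without tunicamycin replicate 4 and 3 without control replicate 3 or control replicate 5, and the number that fell was 1 without control replicate 1, control replicate 2, tunicamycin replicate 2 or tunicamycin replicate 5. CDC37, which brings kinases to HSP90, rose by 0.46 (adjusted p = 0.000576 in edgeR's test), and PPID, an HSP90-bound prolyl isomerase, by 0.36. UNC45A, the myosin chaperone that binds HSP90, had a log2 fold change of -0.42, and AHSA1, which stimulates the HSP90 ATPase, one of -0.28 that lost its call when any of 4 libraries was left out. The PPID transcript end lies opposite ETFDH, and whether counting used strand is not given in the sources used here.

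Among 15 tested cytosolic J-domain genes of 17 listed, 2 rose and 1 fell, beside 17.6% and 16.6% of all genes tested, with a median of -0.002. With the replicate block these counts were 4 and 2, and they were 4 higher without tunicamycin replicate 5 and 2 lower without tunicamycin replicate 1. Over the alternatives that kept all libraries, the number lower ranged from 0 to 3. DNAJA2, a partner of HSPA8, rose by 0.47 on the log2 scale (adjusted p = 0.00524 in edgeR's test), and DNAJC9, which handles histones, had a log2 fold change of -0.35, with an end lying wholly opposite FAM149B1 and an adjusted p of 0.0506 in DESeq2 with the replicate block. DNAJC6, the neuronal auxilin, was the other to rise, at 7.91 ± 6.60 normalized counts in control and 27.2 ± 6.34 in tunicamycin cells (SD, n = 5), and it is named because its values were seen. Of the other cytosolic HSP70 and HSP110 genes 5 of 8 were tested, and HSPA4L, an HSP110 protein, fell by 0.44 on the log2 scale while the rest did not pass the threshold; its end lies wholly opposite another annotated gene. HSPA6, the strictly heat-inducible HSP70, had no more than 1 count in any library. Of 9 other small heat shock protein genes only 2 passed the filter, and CRYAA, the lens crystallin, had a log2 fold change of -0.37, but 100% of its end stretches occur more than once in the genome, so its count is uncertain. CRYAA also lost its call without control replicate 1 (adjusted p = 0.0525 in edgeR's test) or tunicamycin replicate 2 (0.0684), which left this list with 0 genes lower.

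Of the heat shock factors and other genes known to rise on heat shock, 3 of 11 rose and 0 fell, beside 17.6% and 16.6% of all genes tested, with a median of 0.02. HSF1 itself had a log2 fold change of 0.01 (adjusted p = 0.94 in edgeR's test), and 27.4% of its end lies opposite DGAT1 and another annotated gene. BAG3, the HSP70 co-chaperone of selective autophagy, rose by 0.76 (adjusted p = 0.00768 in edgeR's test) and ZFAND2A, an arsenite- and heat-induced proteasome adaptor, by 0.69 (adjusted p = 0.000163). SERPINH1, the third, is the collagen chaperone HSP47 and resides in the ER. HSPA8 and HSPA1B among the members, and BAG3 and ZFAND2A here, were thus called higher in the same group comparison in which DNAJB1, HSPH1, HSP90AA1 and HSPB1 were called lower. This does not hold library by library, since BAG3 and HSPH1 in tunicamycin replicate 1 and HSPA1B in tunicamycin replicate 3 lay within their control ranges.

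Of 8 subunits of TRiC, the cytosolic chaperonin that folds actin and tubulin, 3 rose and 0 fell, beside 17.6% and 16.6% of all genes tested, with a median log2 fold change of 0.15, and CCT4 rose by 0.63 and CCT2 by 0.52. Of 6 prefoldin genes, which pass clients to TRiC, 3 rose and 1 fell, beside the same shares. PFDN2 rose by 1.46 (adjusted p = 1.64e-08 in edgeR's test), from 258 ± 39.4 to 712 ± 94.2 normalized counts (SD, n = 5), VBP1 rose by 0.39, and PFDN5 had a log2 fold change of -0.28 that lost its call when any of 6 libraries was left out. The end of PFDN5 is wholly shared with another annotated gene on its strand, and 30.6% of the end of CCT4 lies opposite one.

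In mitochondria HSPA9, the matrix HSP70, rose while HSPD1 and HSPE1 did not pass the threshold. HSPA9, which encodes mortalin and pulls imported proteins into the matrix, had 543, 576, 675, 633 and 509 normalized counts in the controls and 1298, 1426, 1396, 1649 and 1673 in the tunicamycin libraries. The groups were well apart, and the log2 fold change was 1.34 (SE 0.10, adjusted p = 6.24e-09 in edgeR's quasi-likelihood test). HSPD1 relative to HSPA9 fell by 1.38 on the log2 scale, from ratios of 9.96 to 12.0 in control to 3.14 to 6.17 in tunicamycin libraries (exact permutation test, p = 0.00794, adjusted 0.0119). Of 18 mitochondrial chaperone and protease genes other than HSPD1 and HSPE1, HSPA9 included, 7 rose and 1 fell, beside 17.6% and 16.6% of all genes tested, with a median of 0.27. DNAJC19, an import motor subunit, rose by 0.77, and SPG7, a subunit of the inner membrane m-AAA protease, fell by 0.67.

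All 10 listed ER counterparts rose, beside 17.6% of all genes tested, with a median log2 fold change of 1.95 and a range of 0.59 to 3.76. HSPA5 went from 8445 ± 559 to 66202 ± 4410.5 normalized counts (SD, n = 5), a log2 fold change of 2.97. DNAJB9, an ER J-domain protein, rose by 3.76, HSP90B1, the ER HSP90 called GRP94, by 2.72 and HYOU1, the ER relative of HSPH1, by 2.53, with an opposite-strand gene over its end.

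HSPA8, HSP90AB1 and HSPH1 were also set against an ER relative in the same library. The log2 difference was -1.89 for HSPA8 relative to HSPA5, -2.67 for HSP90AB1 relative to HSP90B1 and -2.96 for HSPH1 relative to HYOU1, lower each time in 5 of 5 pairs (exact permutation tests, two-sided, p = 0.00794, adjusted 0.0119 over 12 ratios). HSPA8, which rose most among the 10 genes, rose less than its ER relative in every library pair. HSP90AB1 counts were 1.70 to 3.20 times those of HSP90B1 in control libraries and 0.297 to 0.448 times in tunicamycin libraries.

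**Figure D4:**
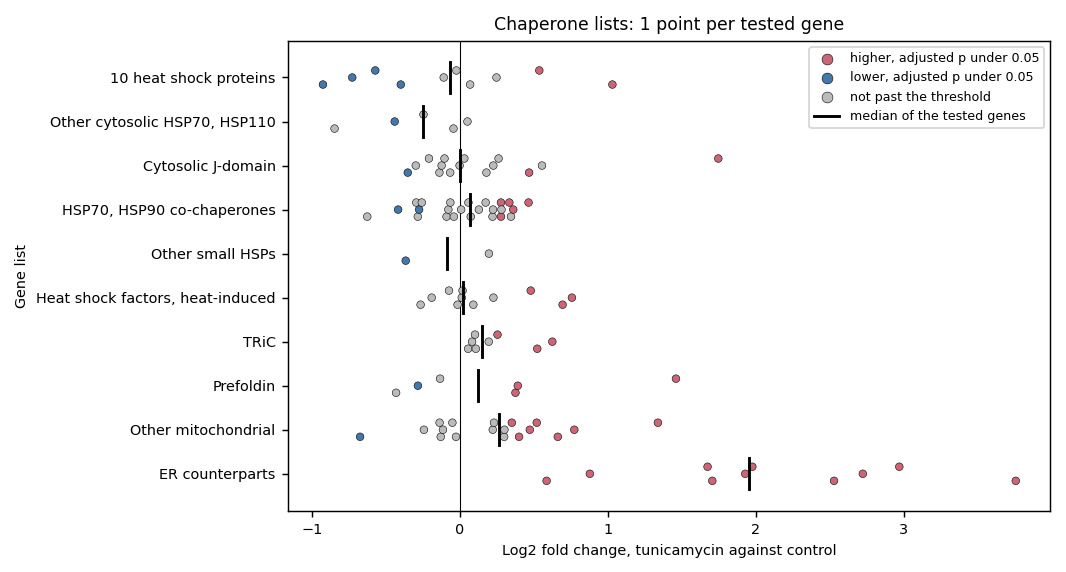
Log2 fold change of tunicamycin against control (horizontal axis) for every tested gene of each list, 1 point per gene, with the list's median as a bar and colours for genes higher or lower with an adjusted p under 0.05. The ER counterparts lie wholly to the right with a median of 1.95, whereas the 10 heat shock proteins of the cytosol and mitochondria spread on both sides of 0.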

How the data were processed

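The 10 libraries were made with the Lexogen QuantSeq 3′ mRNA-Seq kit (FWD) from total RNA of HepG2 cells. The authors deposited raw counts per gene, mapped to hg19 with Ensembl annotation through the nf-core RNA-Seq pipeline with its default settings; the names of the aligner and counter and the strand setting are not given in the sources used here. Columns were matched to samples by name. The series text places replicates on separate days, so replicate numbers pair libraries. The correlation of paired deviations from group means over 9707 genes was 0.36, 0.0197, 0.0764, 0.162 and 0.137, in replicate order. A library of another number correlated more highly for replicates 2 (0.167) and 5 (0.159), so the pairing rests on the series text.

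Genes were filtered with filterByExpr (minimum count 2, minimum total 10). All were tested with edgeR 4.0.16 (R 4.3.3) by the quasi-likelihood test with TMM scaling and condition as the only term, at a Benjamini-Hochberg adjusted p of 0.05. The standard error is the absolute log2 fold change divided by the square root of F. Within-library ratios used log2 values with a pseudocount of 0.5 and exact permutation tests over libraries. The tests were first run on simulated data. Alternatives were DESeq2 1.42.0, other scalings, filters and thinning, the replicate block, and each library left out. Promoters come from RefSeq (GRCh38.p14), gene positions and transcript ends from GRCh38 with GENCODE annotation, and no hg19 coordinate is given.

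The members and gene lists were chosen with earlier results of these data known. Named genes are the members, HSF1, the genes of the ratios and, in each list, up to 2 higher and 2 lower called genes with the largest log2 fold changes and a mean of at least 20 normalized counts. AFP, DNAJC6, SERPINH1 and HSPA6 were named after their values were seen. A planned comparison of protein sequences was not made.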

Additional observations from a re-analysis of the deposited data

Results flagged for a closer look

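A library far from the other 4 of its group, by Dixon's test at the 95% level, was found in 6 of 96 groups examined, where chance alone gives about 4.8. HSPB1 in tunicamycin replicate 1 was at 312 normalized counts, against 353 to 361 in the other tunicamycin libraries. DNAJC9 in tunicamycin replicate 4 was at 109.9 normalized counts, against 135 to 142. ZFAND2A in tunicamycin replicate 1 was at 461 normalized counts, against 328 to 349. The remaining flags were ratios in tunicamycin replicate 1. HSPH1/HSPA8 was 2.02 there, DNAJB1/HSPA8 was 0.773 and HSPA8/HSPA5 was 0.00525, and all of them contain HSPA8, which was lowest in that library of its group.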

How the results depend on the processing

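The counts of members called were 2 higher and 4 lower with DESeq2, with every other scaling and filter, after thinning to the smallest library and with the replicate block. Leaving out 1 library gave 1 to 2 higher and 3 to 5 lower. HSPA1B and HSPH1 accounted for the losses and HSPE1 for the gain, as given with their values. The replicate block, which pairs libraries of the same day, changed no member's call. In the 5 pairs an exact sign-flip test cannot go below 0.0625, so that with the replicate block 0 of the 12 ratios passed, against 9 in the test over libraries and 9 to 10 when 1 library was left out. No log2 fold change called in the main fit changed sign in any setting run. Among the other named genes, DNAJC9, VBP1 and PFDN5 lost their call after thinning, and PPID and VBP1 lost theirs with library size only, which gave 1 co-chaperone higher in place of 5. DESeq2 with the replicate block gave 3 co-chaperones higher and ended the call of DNAJC9 (log2 fold change -0.35, adjusted p = 0.0506), whereas edgeR with the block kept it. The cause was not tested. Replicates are separate days of 1 cell line, and depth limits genes with few counts, such as HSPA1B.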
